A study of Mus musculus with 8 samples.

Results

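The genes described here encode the initiation and elongation factors of cytosolic translation. They were taken by symbol, as rows of the count table whose names begin with Eif1 to Eif6 or with Eef1 or Eef2, leaving out the Eif2ak kinases, Eif2s3y and symbols marked as pseudogenes. The rule found 67 of the 25239 genes of the table, of which 51 carry an Eif symbol of a translation factor, 15 an Eef symbol, and 1 is Eif2c5, an Argonaute-type symbol that the annotation lists as a long non-coding RNA. The counts come from RNA-seq of liver, with 4 libraries in each of 2 groups of adult male mice. Knockout mice carried Zfp36l1 fl/fl alleles together with an Alb-Cre transgene, whose albumin promoter drives Cre recombinase in hepatocytes, and control mice carried the fl/fl alleles and are labelled WT for genotype. Both groups therefore share the loxP-flanked alleles, while the deletion and the Cre transgene differ together between them and cannot be told apart. Whether the gene was also deleted in other cell types of the liver was not tested. The labels name no treatment and do not tie each library to a separate mouse, and the p-values cover only the variation among these libraries.

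Translation starts when eIF2, bound to GTP and the initiator tRNA, joins eIF1, eIF1A, eIF3 and eIF5 on the small ribosomal subunit. The complex is brought to the capped end of the mRNA by eIF4E, the scaffold eIF4G and the helicase eIF4A, and eIF5B then helps the large subunit to join. Elongation uses eEF1A to deliver aminoacyl-tRNA, the eEF1B complex to reload eEF1A with GTP, and eEF2 to move the ribosome along. Many of these mRNAs, like those of ribosomal proteins, carry a pyrimidine tract at the 5′ end through which mTORC1 controls their translation. The deleted gene encodes an RNA-binding protein that recognises AU-rich elements, with UAUUUAU as its core, in 3′ untranslated regions and promotes decay of the mRNA.

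Because of that binding preference, the annotated 3′ ends of the members were searched for TATTTAT, the DNA form of UAUUUAU, on the transcript strand. The longest annotated 3′ untranslated region (UTR) of a protein-coding transcript was used for each gene. Of the 60 members tested for a difference, 59 had such a region and 14 of these held the motif (23.7%), against 4074 of 13700 tested genes (29.7%). The matches of members that the results below turn on, or that are among the most abundant, are shown with 10 bases on each side, 5′ to 3′ on the transcript strand, with the motif in capitals (GENCODE M21, GRCm38).
Eif4g3 (chr4:138206378-138206384, plus strand): atacatgtacTATTTATagaaaatatt
Eef1e1, upstream match (chr13:38645805-38645811, minus strand): ttctcttagaTATTTATtgtagtttat
Eef1e1, downstream match (chr13:38645720-38645726, minus strand): gttctcaaaaTATTTATgtgagctagt
Eif4ebp2 (chr10:61429669-61429675, minus strand): ccacggcagcTATTTATtaatgtgcga
Eef2 (chr10:81182213-81182219, plus strand): ctaccaattcTATTTATttcggaatta
Eif4a1 (chr11:69666988-69666994, minus strand): ttttgtatagTATTTATtgattcagga
Eif4a2, upstream match (chr16:23112463-23112469, plus strand): agcgagtcggTATTTATatttgatttt
Eif4a2, downstream match (chr16:23113783-23113789, plus strand): gttggtattgTATTTATtcaataaagt
Eif4g2 (chr7:111069049-111069055, minus strand): tcttccatggTATTTATgaggaaggag
Eif5 (chr12:111544828-111544834, plus strand): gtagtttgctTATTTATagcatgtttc
A match is a description of the letters and no evidence that the protein binds there. The median log2 fold change of knockout over control was −0.01 for the 14 members with a match and −0.12 for the 45 without, beside 0.06 and −0.03 for all tested genes with and without one. The 3′ UTRs with a match were longer, with a median of 2028.5 bases in members with a match against 543 bases in those without, and 2149 against 854 bases over all tested genes. The part of that length difference in the medians was not tested.

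Total counts ranged from 120200618 to 140582588 in knockout libraries and from 104842873 to 132017092 in control libraries, where 3 counts, the limit that a count of 0 allows, equal 0.0213 to 0.0286 CPM (counts scaled to a common library total). The targeted transcript checked the labels. Zfp36l1 had 76.9, 57.9, 67.2 and 58.3 CPM in knockout libraries 1 to 4, against 263, 237, 323 and 212 CPM in control libraries 1 to 4, and held 25.1% of the control level (log2 fold change −1.99, SE 0.14, adjusted p = 0.000309, exact two-sided permutation p = 0.0286, the smallest that 70 free assignments allow). Replicate numbers pair the libraries, and with sign changes within the 4 pairs the exact two-sided permutation p is 0.125, the smallest that 16 sign changes allow, with knockout lower in 4 of 4 pairs. The summed level of the 6 hepatocyte markers, led by Alb, was 81386 to 90324 CPM in knockout libraries and 68322 to 75692 CPM in control libraries. None of the 5 tested markers passed the threshold by edgeR, and the sixth, the urea cycle gene Ass1, had 2 to 7 counts in knockout and 3 to 6 in control libraries, near 0 in a tissue known to express it. The summed levels of the other 7 marker lists, for non-parenchymal and immune cells, overlapped between the groups. Among them 1 marker passed, the biliary marker Sox9, which fell (log2 fold change −1.18, adjusted p = 0.0242), with a summed biliary level of 30.2 to 44.7 CPM in knockout and 42.0 to 56.9 CPM in control libraries. The 10 most abundant genes of each library took 19.1% to 21.0% of the counts in knockout libraries and 14.9% to 16.9% in control libraries. The part of any of these values in the results below was not tested, and in bulk liver fewer cells of a type and less RNA per cell cannot be told apart. Unless stated otherwise, levels are TMM-normalised CPM (CPM scaled by the trimmed mean of M-values), errors are SD with n = 4 per group, fold changes are knockout over control on the log2 scale, and intervals are 95% and approximate. Adjusted p-values come from the edgeR quasi-likelihood fit, with the Benjamini-Hochberg method applied over 14861 tested genes.

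Few translation factor genes passed the threshold for a difference in mRNA level in the main fit, and most estimated changes were small. Of the 60 tested members 1 rose, Eif4g3, and 1 fell, Eif3e, at adjusted p under 0.05, while 58 did not pass. That is 1.67% of the members in each direction, beside 3.51% of all tested genes that rose, 1.88% that fell and 5.39% in either direction. Of the 7 members not tested, Eif3j1, Eif3j2, Eif4e1b, Eef1akmt4-ece2 and Eif2c5 are listed at 0 in every library, and Eef1a2 and Eif4a3l1 had 2 counts in knockout library 3 alone. A value at or near 0 in this table does not show that a gene is silent, since Rpl26, a ribosomal protein gene that every cell uses, is also listed at 0, Rpl30 had 1 to 12 counts and Rps27 had 15 to 35 counts. Whether reads of genes with near-identical copies were lost in counting was not tested, and the levels of members with such copies are uncertain. The fold changes lay between −0.40 and 0.66 and were within 0.2 of 0 for 44 members. The median was −0.07, beside −0.01 for all tested genes, and 44 of the 60 values (73.3%) were below 0 against 51.6% of all tested genes. With DESeq2 size factors 43 members were below 0, and with total counts 53. The groups did not overlap for 13 members that were lower and 5 that were higher in the knockout, where the background shares were 7.93% and 7.17% of all tested genes. The 5 higher ones were Eif4g3, Eif4ebp3, Eif4e, Eif2s2 and Eef1e1, and the 13 lower ones included 5 eIF3 genes. At an unadjusted p under 0.05 there were 3 higher members (5%, beside 10.8% of all tested genes) and 12 lower members (20%, beside 10.6%).

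The number of members called depended on the scaling and on single libraries. Total count scaling shifted the median over all genes by −0.113, and 0 members were then higher and 13 lower, with a background of 2.64% higher and 9% lower. Those 13 were Eif1ax, Eif2a, Eif2d, Eif3e, Eif3f, Eif3h, Eif3i, Eif3l, Eif3m, Eif4b, Eef1b2, Eef1g and Eef2k. With the replicate number as a block 2 members rose and 2 fell, the additional ones being Eif4ebp3 and Eef1b2 (background 4.39% higher and 2.52% lower). No member was called without knockout replicate 1, 2 or 3 or without control replicate 1, 1 member was called without knockout replicate 4 and without control replicate 2 or 4, and 6 were called, all lower, without control replicate 3. The calls over all genes moved too, with 2.57% lower without control replicate 3 and 0.281% to 1.32% lower in the other 7 of these fits. The counts by role below are from the TMM fit without the block unless another fit is named.

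**Figure D1:**
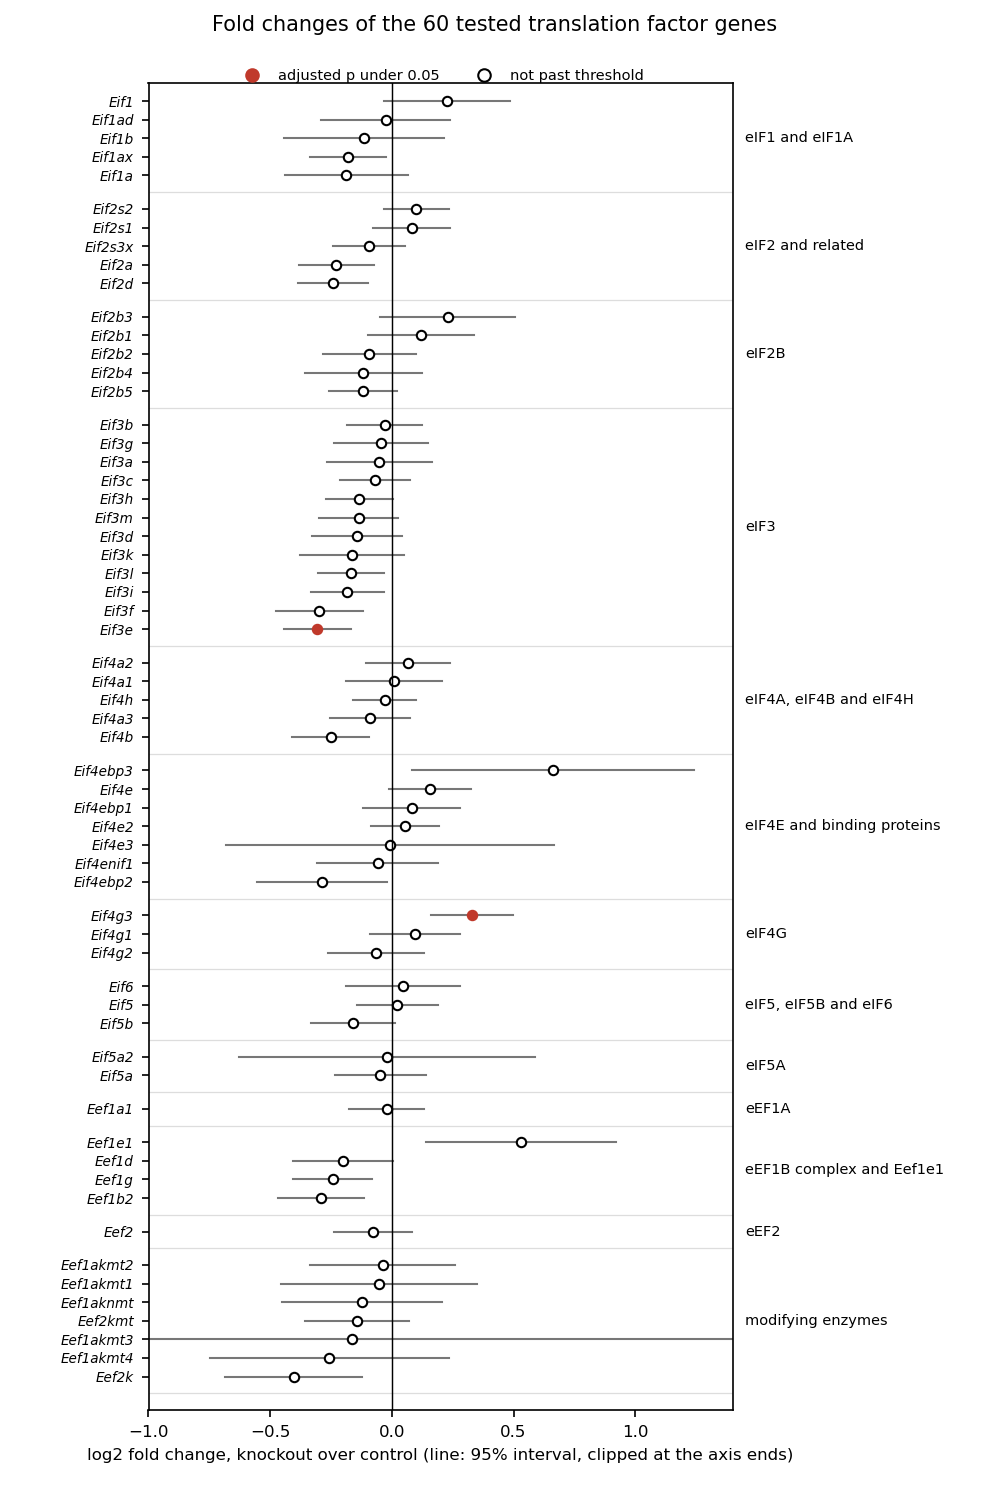
Log2 fold change of knockout over control (x axis) for each of the 60 tested members (rows, grouped by role). Circles are the estimates from edgeR, lines the approximate 95% intervals, and filled circles mark Eif3e (−0.31) and Eif4g3 (0.33), the members past the threshold. All 12 tested eIF3 subunit genes lie left of 0.

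eIF3 is the largest initiation factor, an assembly of subunits that holds the small ribosomal subunit ready for mRNA. All 12 tested eIF3 subunit genes had a fold change below 0 under TMM, with values from −0.31 to −0.03 and a median of −0.14. The 12 were also below 0 with DESeq2 size factors and with total counts. Since total counts moved the median of all genes by −0.113, signs below 0 under that scaling add no support. Only Eif3e passed the threshold. Eif3e (ENSMUSG00000022336.3, chr15:43250058-43282719, minus strand), a PCI-domain subunit, had 53.6, 54.2, 55.0 and 55.8 CPM in knockout libraries 1 to 4, against 70.1, 69.4, 62.0 and 68.7 CPM in control libraries 1 to 4. Every knockout library lay below every control library, and control library 3 was the lowest control. The means were 54.6 ± 0.933 CPM in knockout and 67.6 ± 3.77 CPM in control livers, a fold change of −0.31 (SE 0.06, adjusted p = 0.024) or a decrease of 19.1%. The adjusted p was 0.0832 without knockout replicate 1, 0.0638 without knockout replicate 2, 0.0753 without knockout replicate 3, 0.0681 without control replicate 1 and 0.0609 without control replicate 2.

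Eif3f, which encodes an MPN-domain subunit, had 30.5, 35.3, 32.6 and 32.6 CPM in knockout libraries, against 43.5, 41.1, 35.4 and 40.9 CPM in control libraries. The groups came close to each other at 35.3 CPM in knockout library 2 and 35.4 CPM in control library 3, and did not overlap. The fold change was −0.30 (SE 0.08) and did not pass (adjusted p = 0.0616). Eif3l, which encodes another PCI-domain subunit, averaged 66.2 ± 2.01 CPM in knockout and 74.3 ± 3.5 CPM in control livers (fold change −0.17, adjusted p = 0.144). Eif3i, a subunit of the module that also holds eIF3b and eIF3g, averaged 46.3 ± 2.88 and 52.6 ± 2.27 CPM in knockout and control livers (−0.18, adjusted p = 0.147). Eif3h, the other MPN-domain subunit gene, averaged 65.7 ± 2.21 CPM in knockout and 72.1 ± 3.32 CPM in control livers and also had groups that did not overlap (−0.13, adjusted p = 0.241). The fold changes nearest 0 were those of Eif3b, Eif3a and Eif3g. Eif3a averaged 263 ± 8.64 CPM in knockout and 272 ± 36.4 CPM in control livers (fold change −0.05, interval −0.26 to 0.16), and Eif3b 122 ± 4.47 and 124 ± 8.9 CPM (−0.03, interval −0.18 to 0.13). Under total count scaling 6 of the 12 eIF3 genes passed, all lower. Eif3j1 and Eif3j2, near-identical copies that encode the loosely bound eIF3j subunit, are listed at 0 in all 8 libraries and were not tested.

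**Figure D2:**
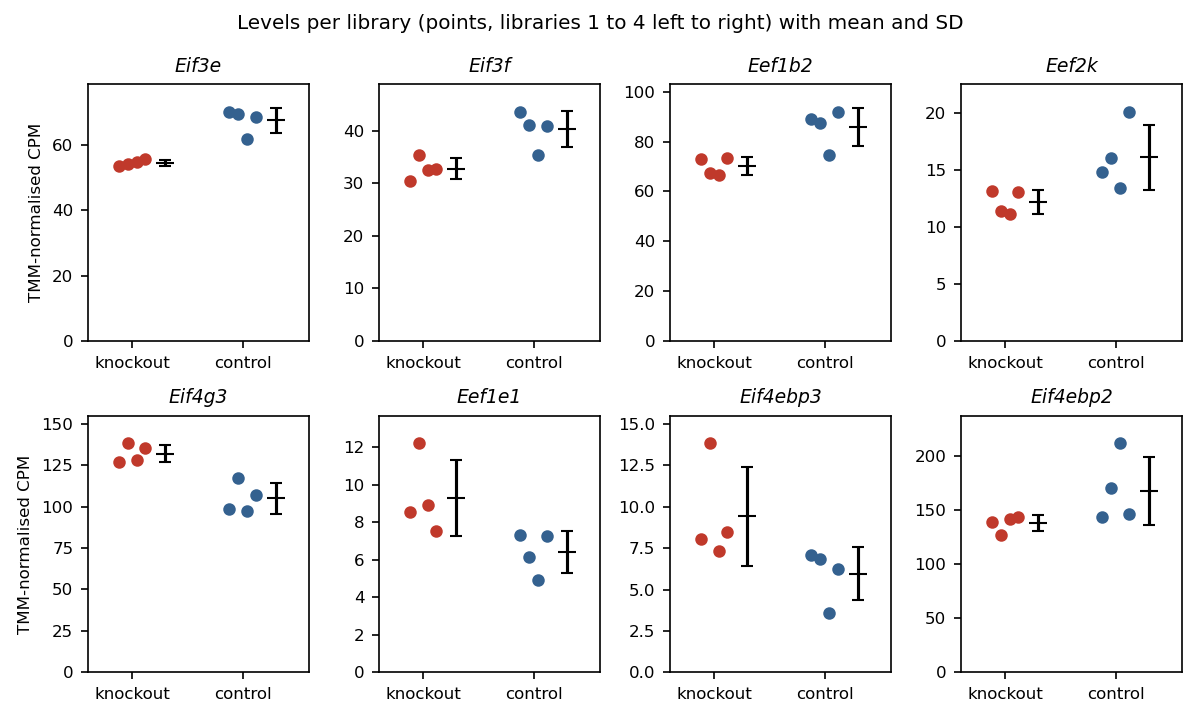
TMM-normalised CPM (y axis, from 0) of 8 members in each knockout (left) and control (right) library, with mean and SD beside the points. Knockout levels of Eif3e sit between 53.6 and 55.8 CPM, below all control libraries, and those of Eif4g3 between 127 and 138 CPM, above all control libraries. Control library 3 has the lowest control level of Eif4ebp3 and the highest of Eif4ebp2.

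The eIF4G genes encode the scaffold that links the cap-binding protein to eIF4A and eIF3. Eif4g3 (ENSMUSG00000028760.16, chr4:137993022-138208508, plus strand), which encodes the eIF4GII form, had 127, 138, 128 and 135 CPM in knockout libraries, against 98.3, 117, 97.5 and 107 CPM in control libraries. Every knockout library was above the highest control library, number 2. The means were 132 ± 5.42 CPM in knockout and 105 ± 9.27 CPM in control livers, an increase of 25.6% (fold change 0.33, SE 0.08, adjusted p = 0.0363). The call was lost under total count scaling, with a fold change of 0.22 and adjusted p = 0.0947. It was kept in 1 of the 8 fits that each left out a library, the one without control replicate 2 (adjusted p = 0.029). The other adjusted p-values were 0.0811, 0.0967, 0.084 and 0.0727 without knockout replicates 1 to 4, and 0.1, 0.0545 and 0.0597 without control replicates 1, 3 and 4. Eif4g3 overlaps 1700095J12Rik on the opposite strand, and the reads of overlapping partners cannot be told apart where counting by strand is not stated.

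Its relatives did not pass. Eif4g1, which encodes the main eIF4G, averaged 809 ± 27.6 CPM in knockout and 757 ± 69.9 CPM in control livers (fold change 0.09, interval −0.09 to 0.28). Eif4g2, which encodes a shortened relative that does not bind the cap-binding protein, averaged 605 ± 45.9 and 633 ± 57.2 CPM in knockout and control livers (−0.07, interval −0.26 to 0.13). Per length, Eif4g3 was the least abundant of these genes, with 35.1 ± 1.39 TPM (counts divided by gene length and scaled to a common sum per library) in knockout and 29.6 ± 2.72 TPM in control livers, against 340 ± 14.5 and 339 ± 38.9 TPM for Eif4g1. The Eif4g1 to Eif4g2 ratio of TPM was 1.77 to 1.98 in knockout and 1.61 to 1.85 in control libraries and overlapped.

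Among the cap-binding protein and its partners, 0 of 7 tested members passed in either direction. The 4E-binding proteins hold eIF4E away from eIF4G until mTORC1 phosphorylates them. Eif4ebp3 had 8.05, 13.8, 7.33 and 8.46 CPM in knockout libraries, against 7.07, 6.86, 3.6 and 6.27 CPM in control libraries. Knockout library 2 and control library 3 lay farthest out, and the lowest knockout library was just above the highest control library. The fold change of 0.66 was the largest among the tested members, but its interval ran from 0.08 to 1.24 and it did not pass (adjusted p = 0.173, or 0.047 in the blocked fit). Eif4ebp2 had 139, 127, 142 and 143 CPM in knockout libraries, against 144, 170, 212 and 146 CPM in control libraries. The groups lay close together without overlap, and control library 3 stood highest (fold change −0.29, adjusted p = 0.199). Eif4ebp1 averaged 21.3 ± 1.32 CPM in knockout and 20.1 ± 2.17 CPM in control livers (0.08, interval −0.12 to 0.28).

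Eif4e itself had 44.5, 46.4, 45.3 and 44.3 CPM in knockout libraries, against 40.1, 42.8, 35.3 and 43.7 CPM in control libraries. Its groups did not overlap, and the fold change was 0.16 (interval −0.01 to 0.32, adjusted p = 0.269). Eif4e2, which encodes a cap-binding homologue that acts in translational repression, averaged 36.1 ± 1.76 CPM in knockout and 34.7 ± 1.23 CPM in control livers (0.06, interval −0.08 to 0.20). Eif4e3 was low and varied, with 6.16 CPM in knockout library 4 and 2.30 to 3.27 CPM in the other knockout libraries, against 2.71 to 4.49 CPM in control libraries. Eif4e1b is listed at 0 in all 8 libraries.

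Of the eIF4A helicases and their cofactors, 0 of 5 tested members passed. Eif4b, a cofactor that stimulates the helicase, had 260, 257, 268 and 264 CPM in knockout libraries, against 301, 320, 342 and 287 CPM in control libraries. The groups did not overlap, and the fold change of −0.25 (SE 0.07) had adjusted p = 0.0717. The helicase genes themselves lay close to the control level. Eif4a1 averaged 234 ± 13.3 CPM in knockout and 233 ± 25 CPM in control livers (0.01, interval −0.19 to 0.20), and Eif4a2 285 ± 13.6 and 273 ± 21.7 CPM (0.07, interval −0.11 to 0.24). The Eif4a1 to Eif4a2 ratio of TPM was 1.30 to 1.47 in knockout and 1.20 to 1.72 in control libraries. Eif4h, another helicase cofactor, averaged 165 ± 6.83 and 169 ± 1.88 CPM (−0.03, interval −0.16 to 0.10).

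The factors that select the start codon and carry the initiator tRNA did not pass either. Of the members grouped with eIF1 and eIF1A, which keep the scanning complex open, 0 of 5 passed. The 5 include Eif1ad (fold change −0.02), for which no role in scanning is stated here. Eif1 had 137, 181, 152 and 145 CPM in knockout libraries, against 147, 128, 109 and 143 CPM in control libraries, so that the groups overlapped (fold change 0.23, interval −0.03 to 0.49, adjusted p = 0.293). Eif1b, its close paralog, averaged 8.37 ± 0.613 CPM in knockout and 9.07 ± 1.85 CPM in control livers (−0.12, interval −0.44 to 0.21). The levels of Eif1b overlapped as well. The Eif1 to Eif1b ratio of TPM was 12.4 to 14.2 in knockout and 8.72 to 12.2 in control libraries, and these ranges did not overlap. This ratio was 1 of 8 planned, and the other planned ratios that could be formed overlapped. No ratio was tested. Eif1ax averaged 31.3 ± 1.08 and 35.5 ± 2.63 CPM in knockout and control livers (−0.18, adjusted p = 0.172).

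The 3 tested subunit genes of eIF2 had fold changes from −0.09 to 0.10. Eif2s1, whose product is phosphorylated under stress, averaged 36.0 ± 0.0871 CPM in knockout and 34.0 ± 2.91 CPM in control livers (0.08, interval −0.08 to 0.24). The signs of Eif2s1 and Eif2s2 turned under total count scaling, to −0.031 and −0.012. Eif2d and Eif2a encode factors that can deliver initiator tRNA without eIF2. Eif2d had 32.4, 32.8, 31.3 and 30.3 CPM in knockout libraries, against 36.8, 39.3, 35.0 and 39.0 CPM in control libraries, with no overlap (fold change −0.24, SE 0.06, adjusted p = 0.0584). Eif2a had 25.7, 28.9, 26.8 and 29.3 CPM in knockout libraries, against 31.9, 31.9, 31.1 and 34.7 CPM in control libraries, also without overlap (−0.23, SE 0.07, adjusted p = 0.0903). Eif2d overlaps Rassf5 and Eif2a overlaps Serp1 on the opposite strand. The 5 subunit genes of eIF2B, which reloads eIF2 with GTP, had fold changes from −0.12 to 0.23 and 0 passed. In the group of eIF5, eIF5B and eIF6, 0 of 3 passed, and Eif5b averaged 100 ± 4.24 CPM in knockout and 112 ± 10.4 CPM in control livers (−0.16, adjusted p = 0.263). Eif5, which triggers GTP hydrolysis on eIF2, averaged 303 ± 9 and 298 ± 25.9 CPM (0.02, interval −0.15 to 0.19).

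Elongation factor genes held the most abundant members. Per length, Eef1a1 had 5133 ± 153 TPM in knockout and 5537 ± 265 TPM in control livers, and Eef2 had 1356 ± 64.1 and 1521 ± 98.3 TPM. Together they made up 58.9% to 61.6% of the summed TPM of all members in knockout and 58.8% to 61.1% in control libraries. The next gene in that order was Eif4g1, and 17 tested members had a mean of at least 100 TPM. In TMM-normalised CPM Eef1a1 had 3981, 3995, 3966 and 4118 in knockout libraries, against 4109, 4076, 4090 and 4031 in control libraries. The groups overlapped (adjusted p = 0.881). Under TMM the interval of the fold change was −0.17 to 0.13, or from 11.4% downwards to 9.51% upwards. With total count scaling the fold change was −0.14 (adjusted p = 0.233). Eef2 had 1902, 1744, 1808 and 1893 CPM in knockout libraries, against 1829, 1954, 1966 and 2014 CPM in control libraries (fold change −0.08, interval −0.24 to 0.08). Eef1a2, the form known from muscle and neurons, had 2 counts in knockout library 3 and 0 in the other 7 libraries, and no ratio to Eef1a1 was formed. Eif5a, whose hypusine-bearing product helps the ribosome past difficult stretches, averaged 212 ± 7.47 CPM in knockout and 219 ± 22.9 CPM in control livers (−0.05, interval −0.23 to 0.14). Its paralog Eif5a2 was at 0.284 ± 0.0646 and 0.288 ± 0.0527 CPM.

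**Figure D3:**
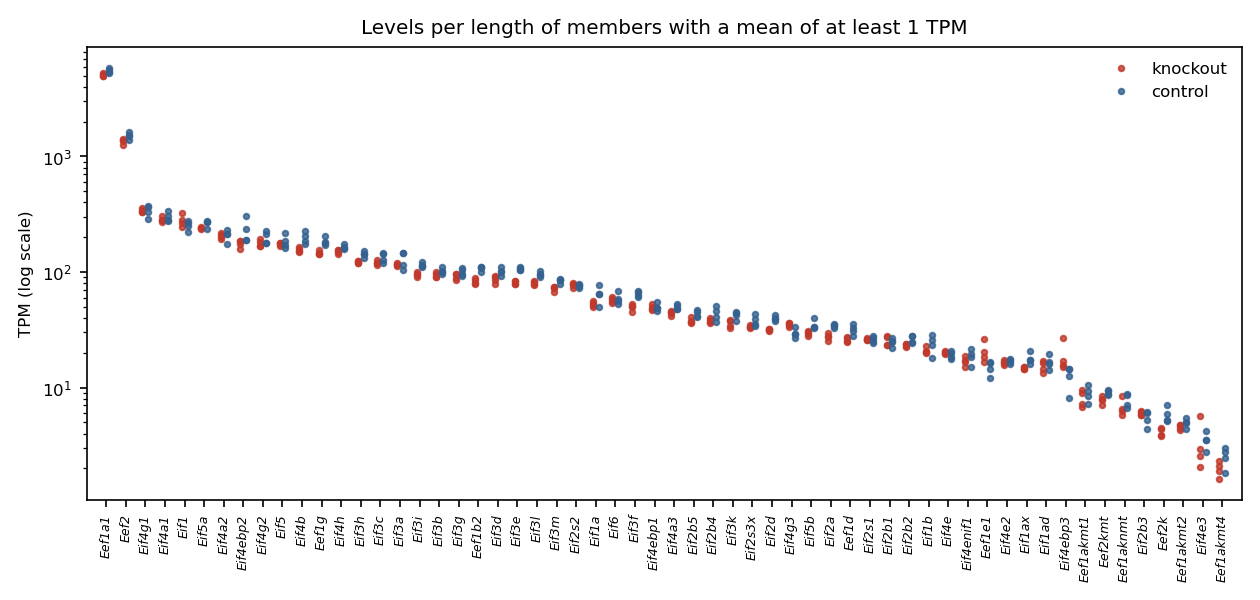
TPM on a log axis for each member with a mean of at least 1 TPM (x axis, in order of mean level), with 4 knockout libraries (left points) and 4 control libraries (right points) per gene. Eef1a1 and Eef2 stand above the rest, and the groups differ by little next to the range of levels among members. TPM values are scaled to a common sum within each library and carry no TMM factor.

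The genes of the eEF1B complex, the exchange factor of eEF1A, had fold changes below 0 under TMM, but 0 passed in that fit without the block. They were also below 0 with DESeq2 size factors and with total counts. The sign under total counts adds no support, since that scaling moved the median of all genes downwards. Eef1b2, which encodes its catalytic subunit, had 73.0, 67.5, 66.6 and 73.6 CPM in knockout libraries, against 89.1, 87.4, 74.6 and 91.9 CPM in control libraries. Control library 3 was nearest to the knockout libraries, and the groups did not overlap. The fold change was −0.29 (SE 0.08, adjusted p = 0.0661, or 0.043 in the blocked fit). Eef1b2 overlaps Ndufs1 on the opposite strand. Eef1g, a structural subunit gene, had 101, 100, 95.2 and 105 CPM in knockout libraries, against 114, 130, 109 and 122 CPM in control libraries (−0.24, SE 0.07, adjusted p = 0.0839). Under total count scaling Eef1b2 and Eef1g passed, with adjusted p = 0.0151 and 0.0182. Eef1d, the gene of the other exchange subunit, averaged 34.3 ± 1.75 CPM in knockout and 39.5 ± 4.71 CPM in control livers, and its groups overlapped (−0.20, adjusted p = 0.24).

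Eef1e1 went the other way from the eEF1B genes. Despite its symbol it encodes a scaffold protein of the aminoacyl-tRNA synthetase complex. It had 8.53, 12.2, 8.91 and 7.52 CPM in knockout libraries, against 7.32, 6.16, 4.92 and 7.29 CPM in control libraries. The groups did not overlap, with knockout library 2 highest, and the fold change of 0.53 (interval 0.14 to 0.92) did not pass (adjusted p = 0.112). Its 3′ UTR holds the pair of TATTTAT matches shown above. Those of Eif4a2 and Eif4ebp1 also hold 2 matches each, with fold changes of 0.07 and 0.08. Whether the matches bear on the levels was not tested. Among the enzymes that modify elongation factors, all 7 tested genes had values below 0 and 0 passed. Eef2k, which encodes the kinase that inactivates eEF2, had 13.2, 11.4, 11.2 and 13.1 CPM in knockout libraries, against 14.8, 16.1, 13.5 and 20.1 CPM in control libraries. Its groups did not overlap, control library 4 was the highest, and the fold change of −0.40 was the lowest of any member (SE 0.13, adjusted p = 0.0985). The methyltransferase genes of eEF1A and eEF2 were low, between 0.0752 and 8.22 CPM on average in knockout livers, and the interval of Eef1akmt3 spanned −1.98 to 1.66.

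The libraries themselves differed in how the members were placed. Control library 2 had the highest level of 23 of the 60 tested members, and control library 3 the lowest of 22. Knockout library 4 had the lowest level of 11 members. The same placement was not counted over all tested genes, so it cannot be called particular to the members. The median coefficient of variation of the tested members was 5% in knockout and 9.31% in control libraries, beside 11% and 13.5% for all tested genes. All 67 members together took 1.05% to 1.09% of counts in knockout libraries and 1.16% to 1.24% in control libraries, with a half-width of the 95% Wilson interval of at most 0.00205 percentage points, which covers counting error only. These shares are of raw counts and move with the share of the 10 most abundant genes given above.

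Cytosolic ribosomal protein genes are the most similar group by function and by the 5′ tract of their mRNAs. The genes counted here under that name were taken by symbol. They also include Rps19bp1 (fold change 0.008), which encodes a protein that binds RPS19, and the retrogenes Rps23rg1 and Rpl37rt. Of 79 tested, 0 rose and 19 fell (24.1%, beside 1.88% of all tested genes), with a median of −0.30. Under TMM 77 values were below 0, and under total counts 79. With the replicate number as a block 40 fell, and with total count scaling 65, beside 2.52% and 9% of all tested genes. Without control replicate 3 the number was 67, beside 2.57% of all tested genes. Without knockout replicate 4 it was 13, and without any other single library it was between 2 and 6. Of all tested genes 0.281% to 1.32% were lower in these latter fits. Of the translation factors 1 of 60 fell (1.67%), with a median of −0.07. With the block 2 of them fell, with total counts 13 and without control replicate 3 6. These values are given side by side, and the difference between the gene groups was not tested.

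**Figure D4:**
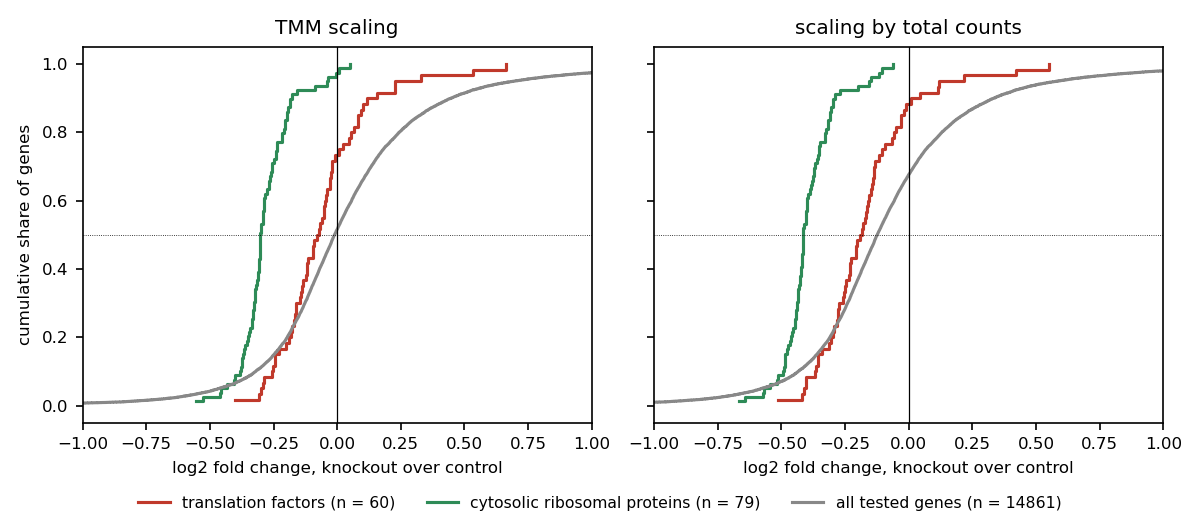
Cumulative share of genes (y axis) by log2 fold change of knockout over control (x axis, cropped at −1 and 1) for the 60 tested translation factors, 79 cytosolic ribosomal protein genes and 14861 tested genes, under TMM (left) and total count scaling (right). The median of the translation factors is −0.07 under TMM and −0.19 under total counts, between the ribosomal protein genes and all genes in both panels.

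Other genes of the pathway were read from lists chosen by function. Of all tested genes 3.51% rose and 1.88% fell, and whether any list differed from these shares was not tested. Of 15 genes for eIF2 kinases, their phosphatase subunits and stress transcription factors, 1 rose (6.67%) and 0 fell. Eif2ak2, which encodes the double-stranded RNA-activated kinase PKR and is known as an interferon-induced gene, had 35.3, 33.1, 38.5 and 34.6 CPM in knockout libraries, against 24.9, 26.5, 26.2 and 24.5 CPM in control libraries. All knockout libraries lay above all control libraries (fold change 0.47, SE 0.07, adjusted p = 0.00754), and the call was kept without any single library. The kinase genes Eif2ak1, Eif2ak3 and Eif2ak4 had fold changes of −0.03, 0.25 and −0.12 and did not pass. Atf4, whose translation rises when eIF2 is phosphorylated, averaged 80.7 ± 4.07 CPM in knockout and 79.6 ± 7.55 CPM in control livers (0.02, interval −0.16 to 0.20). Of 28 genes of the mTORC1 axis and its regulators of 5′ tract mRNAs, 1 rose (3.57%, near the share of all tested genes) and 0 fell. That gene, Larp4, encodes a poly(A)-associated RNA-binding protein and averaged 129 ± 11.5 CPM in knockout and 101 ± 6.99 CPM in control livers (0.35, adjusted p = 0.0419). It was not called under total count scaling (0.23, adjusted p = 0.0907) or in 7 of the 8 fits without 1 library, the exception being that without control replicate 4. Mtor averaged 121 ± 8.19 and 112 ± 11.5 CPM in knockout and control livers (0.11, interval −0.08 to 0.30).

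Of 14 genes for poly(A)-binding proteins and their partners, 1 rose and 1 fell (7.14% each, beside 3.51% and 1.88% of all tested genes). Paip2b, which encodes an inhibitor of the poly(A)-binding protein, had 19.3, 17.4, 17.9 and 19.1 CPM in knockout libraries, against 25.7, 32.4, 25.8 and 28.5 CPM in control libraries. It fell by 34.4% (fold change −0.61, SE 0.09, adjusted p = 0.00796) and kept its call without any single library. Paip1, which encodes a stimulating partner of the same protein, averaged 54.7 ± 2.72 CPM in knockout and 45.9 ± 1.69 CPM in control livers (0.25, adjusted p = 0.047, or 0.0546 with the replicate block). It was not called under total count scaling, without the filter on low counts (adjusted p = 0.0643) or in 7 of the 8 fits without 1 library, with control replicate 3 the exception. With the replicate block 0 genes of this list rose and 2 fell. Pabpc1, the main cytoplasmic poly(A)-binding protein gene, averaged 222 ± 16.8 CPM in knockout and 271 ± 11.2 CPM in control livers (−0.28, adjusted p = 0.0529).

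In the remaining lists 1 gene rose and 0 fell. It was Gfm1, a mitochondrial elongation factor gene, among 12 genes for selenocysteine, mitochondrial and other elongation factors (8.33%, beside 3.51% of all tested genes). Gfm1 averaged 139 ± 10.7 CPM in knockout and 112 ± 4.47 CPM in control livers (0.31, adjusted p = 0.0386, or 0.119 under total count scaling), and the call was lost in 6 of the 8 fits without 1 library, the exceptions being those without knockout replicate 4 and control replicate 3. For cytosolic aminoacyl-tRNA synthetases and cofactors 0 of 23 tested genes passed, 19 were below 0 and the median was −0.10, with Eprs (−0.25, adjusted p = 0.0684) and Qars (−0.26, adjusted p = 0.0685) lowest in adjusted p. For termination and recycling factors 0 of 10 passed by edgeR. In that list 1 gene had an unadjusted p under 0.05 (10%, beside 21.5% of all tested genes). This was Gspt2, which encodes a form of the termination factor eRF3. Gspt2 was at 0.126, 0.0698, 0.159 and 0.165 CPM in knockout libraries, against 0.314, 0.198, 0.329 and 0.369 CPM in control libraries, or 8 to 22 counts in knockout and 25 to 46 counts in control libraries. Its groups did not overlap, and the fold change of −1.20 (interval −1.96 to −0.45) had adjusted p = 0.0724. With the replicate block 1 gene of this list fell. The list for the enzymes that make diphthamide on eEF2 and hypusine on eIF5A also holds Sms, which encodes spermine synthase. Of its 13 tested genes 0 passed by edgeR, and 4 had an unadjusted p under 0.05, 2 higher and 2 lower (30.8%, beside 21.5% of all tested genes). Sms was 1 of the 2 lower genes (fold change −0.33, adjusted p = 0.109).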

How the data were processed

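The deposited file holds raw read counts per gene symbol for 8 libraries and, per the file headers, gene lengths in bases. The library code in each sample description gave the column of that sample. The build is mm10, per the submitters' processing notes (aligner, counter, annotation and strand setting: not given in the sources used here). Libraries were built with a NEBNext Ultra II kit, per the labels' protocols. Among counts from 1 to 20, 67.4% to 70.8% were even, and halved counts were therefore an alternative.

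The members and lists were chosen with earlier results of these data known. Counts were filtered with filterByExpr (14861 genes kept), scaled with TMM and tested with edgeR 4.0.16 (glmQLFit with robust estimation, glmQLFTest, threshold 0.05, 6 residual degrees of freedom), after the code was checked on simulated counts. Standard errors are the absolute log2 fold change over the square root of F, and intervals use the moderated degrees of freedom without adjustment for multiple tests. TPM were computed from counts and deposited lengths. Alternatives were DESeq2 1.42.0, limma 3.58.1 with voom quality weights, other scalings and filters, halved counts, a replicate block and fits without each library.

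Members named are those past the threshold, the 15 lowest adjusted p-values, the 10 highest mean TPM, the 3 largest changes per direction and 8 paralog pairs. Further members were named by role after their values were seen. In the other lists, genes past the threshold are named, and Atf4, Mtor, Gspt2, Pabpc1, Eprs, Qars and the remaining Eif2ak genes were added after their values were seen. Positions came from GENCODE M21 (GRCm38), which matched 64 of 67 members by symbol. Of 60 tested members 22 overlap another gene of the table, 14 of them on the opposite strand. Reads of close paralogs may be split or lost, since how reads that match several places were counted is not stated.

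Both groups carry replicate numbers 1 to 4. After subtraction of group means, the correlation over genes between libraries of the same number was 0.17, 0.44, 0.32 and 0.44, each above any correlation with another number, so the numbers pair the libraries as a property of the data, while the labels name no shared litter or day.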

Additional observations from a re-analysis of the deposited data

Results flagged for a closer look

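In 3 of 68 groups checked (34 named genes in each of the knockout and control groups), 1 library lay far from the other 3 by Dixon's criterion, which chance gives in about 1 of 20 groups. Eif5 had 317 CPM in knockout library 1, against 298 to 299 CPM in the other knockout libraries. Eif1b had 9.29 CPM in knockout library 2, against 8.01 to 8.14 CPM in the others. Eif4ebp1 had 23.2 CPM in knockout library 2, against 20.4 to 20.8 CPM in the others. None of these 3 genes passed the threshold in the comparison.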

How the results depend on the processing

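Members called were 1 higher and 1 lower in the fit reported. The counts were 0 higher and 13 lower under total counts, and 2 higher and 2 lower with the replicate block. With at least 1 CPM in 4 libraries they were 1 higher and 2 lower (4.65% and 2.51% of all genes). By DESeq2 they were 2 higher and 7 lower (6.82% and 4.87% of all genes). By limma-voom with quality weights they were 1 higher and 6 lower (5.59% and 4.06% of all genes). They ranged from 0 to 1 higher and from 0 to 6 lower over the fits without 1 library, where 1.41% to 6.47% of all genes were called. Eif3e and Eif4g3 were called by edgeR, DESeq2 and limma, and Eif3e also under total counts. The median fold change of the tested members was −0.19 under total counts and ran from −0.11 to −0.05 without 1 library, and Zfp36l1 kept its call in every fit across genes. Sign changes within pairs, chosen after seeing the data, gave Zfp36l1 a mean log2 difference of −1.98 with an exact permutation p = 0.125, a design that cannot go lower. Ribosomal protein genes that fell numbered 2 to 67 without 1 library. Signs turned for members that were not called. Under total counts the fold changes were −0.019 for Eif4g1, −0.10 for Eif4a1, −0.048 for Eif4a2, −0.092 for Eif5, −0.058 for Eif4e2, −0.031 for Eif4ebp1, −0.031 for Eif2s1, −0.012 for Eif2s2 and −0.066 for Eif6, the 9 members that turned. Total counts moved the median of all genes by −0.113, and with that shift taken off 44 members were below 0, the number under TMM. Eif4a1 had −0.021 with limma and −0.051 to 0.070 without 1 library. Without 1 library Eif5a2 ranged from −0.12 to 0.14 and Eif5 from −0.017 to 0.083. The cause of the turns with limma and without 1 library was not tested. Eef1akmt3 and Eif5a2 had few counts and wide intervals.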

Other observations

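Paralog ratios of TPM that were chosen after the values were seen did not overlap between the groups. Levels of Eif4ebp3, Eif4ebp2 and Eif4g3 already did not overlap, so these ratios add no independent support. The Eif4ebp3 to Eif4ebp2 ratio was 0.0804 to 0.169 in knockout and 0.0264 to 0.0762 in control libraries, with means of 0.108 ± 0.0411 and 0.0579 ± 0.0218. The Eif4g3 to Eif4g1 ratio was 0.0971 to 0.11 in knockout and 0.08 to 0.0943 in control libraries. Both are descriptions of these 8 libraries with no test. The Eif4ebp1 to Eif4ebp2 ratio was 0.259 to 0.333 in knockout and 0.161 to 0.289 in control libraries and overlapped, as did the Eif4e to Eif4e2 ratio, at 1.18 to 1.29 and 1.03 to 1.21.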
